A study of Mus musculus with 3 samples.

Results

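The genes described here are 10 genes of cytolytic and effector lymphocytes: Gzma, Gzmb, Prf1, Nkg7, Klrd1, Klrk1, Ncr1, Ifng, Tbx21 and Eomes. They were named by function, as granule, natural killer (NK) receptor and type 1 effector genes, out of 19938 genes with a probe set of their own on the array. Each of the 10 had 1 probe set, so the rule of taking the brightest probe set of a gene had no effect on them. Gene expression was measured in double-positive (DP) thymocytes, which carry both CD4 and CD8, from wild-type C57BL/6 mice 5 to 6 weeks old. Each of 3 cohorts of littermates gave 1 Affymetrix array. The cells were sorted on beads by CD8 and then by CD4, and no second condition was studied. The arrays belong to a project on the factors Ets1, Runx1 and E47 in thymocytes.

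Cytolytic lymphocytes kill by releasing granules. Perforin opens the target membrane, granzymes enter and cleave proteins inside, and receptors of the NK family decide which cell is attacked. The T-box factors T-bet and Eomes switch on this programme and the cytokine interferon gamma in NK cells and mature T cells. DP thymocytes are the stage at which selection on the T cell receptor begins and are not known as killer cells.

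The values are log2 expression values, in which 1 unit is a doubling of signal. A value was called above background when it was higher than 95% of 107 genes of other organs, such as liver, muscle and retina, on the same array. That limit was 7.47, 7.50 and 7.42 on arrays 1, 2 and 3. Probes differ in how well they bind, so each gene was set against the limit and not against another gene. In RNA from a whole sorted sample, few cells with much of a transcript and many cells with little cannot be told apart.

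The genes of the sorted stage were detected, and markers of other cells were in part detected too. Each of the 11 measured genes of the DP stage was above background throughout, among them Rag1, Cd4, Cd8a and Cd8b1. None of the 7 B cell markers and none of the 8 myeloid markers was above it on any array, where 56.5% of all genes were not. Of 9 measured markers of mature CD8 and memory T cells, 4 (S1pr1, Klf2, Ccr7 and Itgae) were above background on every array and 2 on array 1 alone. Of 4 MHC class II genes, H2-Ab1 and H2-Eb1 were above it on every array, and Cd74 and H2-Aa on arrays 1 and 3. Both counts are near the share of all genes above background on every array, which was 40.5%. With the 99th percentile of the organ genes as the limit, they were 2 and 0. Such counts do not settle which cells were present, and the arrays do not show that the sorted cells were wholly DP cells before selection. Array 1 stood apart from the others: Xist had 11.65, 5.40 and 5.68 on arrays 1, 2 and 3, and the Y-linked gene Eif2s3y had 4.21, 10.29 and 10.08. Kdm5d (4.46, 9.10 and 8.97) and Uty (4.00, 8.96 and 8.98), also Y-linked, went the same way. This is the pattern of female cells on array 1 and of male cells on arrays 2 and 3. Over 28939 probe sets, arrays 2 and 3 had a Pearson r of 0.996, and array 1 had 0.993 with either of them.

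Of the 10 genes, 1 lay above background on all 3 arrays, 2 on some and 7 on none. Gzma was the 1, and Prf1 and Nkg7 were the 2. Over all genes, 40.5% lay above background on every array and 56.5% on none, and of the 107 genes of other organs, 4.67% lay above it on every array by the construction of the limit. The median of the 10 genes was 5.77, against 6.85 over all genes and 5.91 over the genes of other organs. The genes above the limit on any array were all granule genes.

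**Figure D1:**
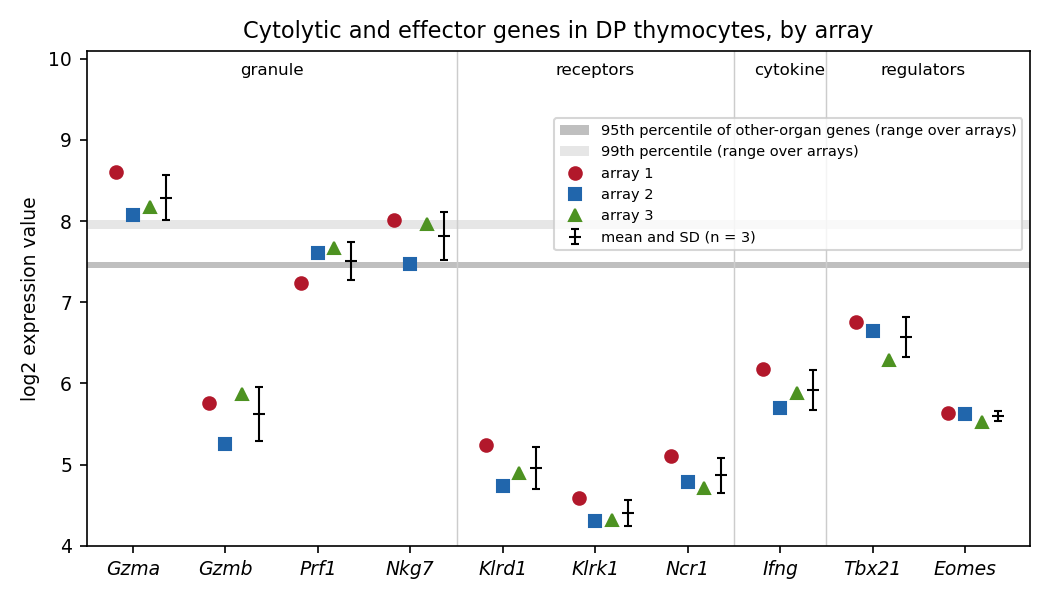
Log2 expression value (vertical axis) of each of the 10 genes on arrays 1 to 3 (points), with the mean and SD over the 3 arrays (bars) and the 95th and 99th percentiles of the organ genes as limits (darker and lighter grey bands). Gzma lies above the darker band on every array, Prf1 and Nkg7 cross it, and the other 7 genes lie below it.

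**Figure D2:**
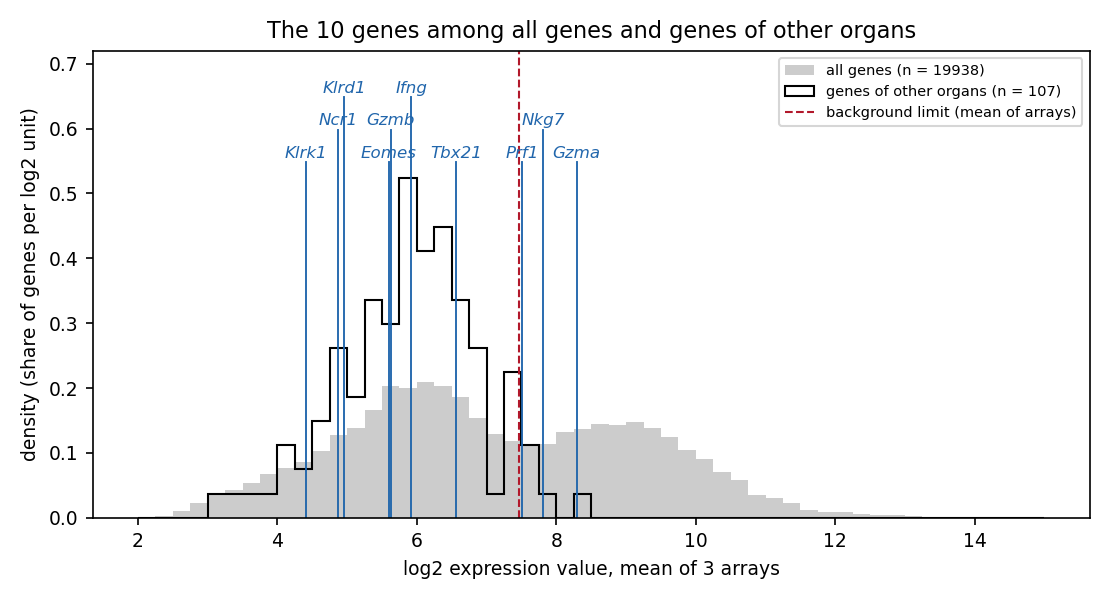
Distribution of the 3-array mean log2 value over all 19938 genes (filled) and over 107 genes of other organs (outline), as density on the vertical axis, with the means of the 10 genes as vertical lines and the mean background limit dashed. Gzma, at 8.29, lies just above the highest of the genes of other organs, at 8.25, and the rest of the 10 lie inside their range.

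The granule genes carried the detected signal. The project's factors bind DNA at short motifs, so the 250 bases before the annotated transcription start are shown for Gzma, the gene above background throughout, for Gzmb, the granzyme below it throughout, and for Prf1, which crossed the limit. The sequences are from RefSeq (GRCm38.p6) and read 5′ to 3′ along the gene's strand. Gzma lies at chr13:113100982-113101231 on the minus strand, Gzmb at chr14:56262335-56262584 on the minus strand and Prf1 at chr10:61297586-61297835 on the plus strand. Capitals mark matches on either strand to 6 motifs. The E-box of the kind that E proteins bind was searched as CACCTG, and a symmetric E-box as CAGCTG. The motif of RUNX factors was searched as TGTGGT, that of ETS factors as AGGAAG and that of T-box factors as AGGTGT. The TATA box was searched as TATAAA.
Gzma: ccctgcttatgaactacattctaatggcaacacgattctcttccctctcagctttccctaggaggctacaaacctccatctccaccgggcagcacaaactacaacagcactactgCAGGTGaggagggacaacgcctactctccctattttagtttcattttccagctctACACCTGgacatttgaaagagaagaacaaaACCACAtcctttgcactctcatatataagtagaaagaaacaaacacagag
Gzmb: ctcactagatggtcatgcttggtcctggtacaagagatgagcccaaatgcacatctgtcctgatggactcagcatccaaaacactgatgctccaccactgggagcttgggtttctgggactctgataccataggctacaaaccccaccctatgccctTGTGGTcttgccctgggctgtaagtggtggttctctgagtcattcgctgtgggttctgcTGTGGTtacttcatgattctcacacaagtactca
Prf1: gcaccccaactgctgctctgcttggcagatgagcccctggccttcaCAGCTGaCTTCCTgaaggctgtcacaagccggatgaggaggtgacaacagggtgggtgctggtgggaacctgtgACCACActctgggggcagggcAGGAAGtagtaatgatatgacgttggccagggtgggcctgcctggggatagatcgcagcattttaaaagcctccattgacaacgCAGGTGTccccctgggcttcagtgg

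The Gzma window held 2 matches to CACCTG, which began 135 and 79 bases before the start. The second overlapped a match to the T-box letters that began 80 bases before it, and a RUNX match began 50 bases before the start. The Gzmb window held 2 RUNX matches, 93 and 34 bases before the start, and none to the other 5 motifs. The Prf1 window held matches to all of them but TATAAA, 1 of each and 2 for ETS, and its T-box match overlapped its CACCTG match. Over 32851 windows of the same length before RefSeq starts, 17.2% held CACCTG, 13.0% CAGCTG, 14% TGTGGT, 29.5% AGGAAG, 11.8% AGGTGT and 12.4% TATAAA. Windows were found for 9 of the 10 genes, and RUNX letters occurred in 6 of them: Gzma, Gzmb, Prf1, Nkg7, Klrk1 and Ncr1. CACCTG occurred in those of Gzma, Prf1, Ifng and Tbx21. AGGAAG occurred in those of Prf1, Nkg7 and Tbx21, and AGGTGT in those of Gzma, Prf1 and Nkg7. CAGCTG occurred only for Prf1 and TATAAA only for Ifng. A gene counted if any of its windows matched, whereas the shares are of windows, so the counts and shares are unlike units. A match describes the letters and is not evidence of binding.

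Gzma encodes a granzyme that cleaves proteins after basic residues. Its values were 8.61, 8.08 and 8.18 on arrays 1, 2 and 3, with a mean of 8.29 ± 0.28 (SD, n = 3 here and below). It exceeded the background limit by 1.15, 0.58 and 0.76 log2 units, and it also cleared a stricter limit, the 99th percentile of the same organ genes, which was 8.02, 7.92 and 7.90. On arrays 2 and 3 the margin over that stricter limit was small, and array 1 was highest.

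Gzmb encodes the granzyme that cleaves after aspartate and starts apoptosis in the target. It had 5.76, 5.25 and 5.87 on arrays 1, 2 and 3 (mean 5.63 ± 0.33). Its differences from the limit were -1.71, -2.25 and -1.55 log2 units. Gzma and Gzmb therefore fell on opposite sides of the limit on every array. Gzmb belongs to a stretch of chromosome 14 that runs from Cma1 to Gzmb and holds 7 measured granzyme genes beside proteases of mast cells and neutrophils. That stretch was chosen after its values were seen. None of the 13 measured genes there exceeded background on any array, where 56.5% of all genes did not. The means of its granzymes ranged from 3.40 for Gzmd to 5.63 for Gzmb. Gzma lies on chromosome 13, next to Gzmk, a granzyme of memory-type T cells, which had 5.21, 5.58 and 5.52. Gzmk lay below background on all 3 arrays while its neighbour Gzma lay above it. Gzmm, encoded elsewhere, had 6.41, 6.41 and 6.38. Gzma was thus the only 1 of 10 measured granzyme genes above background, where 40.5% of all genes were on every array. The list's median was 5.06 ± 0.07. Here and below, a list median is that of the 3-array means of its genes. Its SD is that of the 3 array medians and not a spread over genes.

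Prf1 encodes perforin, the pore former through which granzymes enter. Its values of 7.24, 7.61 and 7.67 on arrays 1, 2 and 3 (7.51 ± 0.23) differed from the limit by -0.23, 0.11 and 0.25 log2 units, so that it was above background on arrays 2 and 3. Nkg7 encodes a granule membrane protein needed for granule release. It had 8.01, 7.47 and 7.96 (7.81 ± 0.30), with differences from the limit of 0.55, -0.03 and 0.54, so that it was above background on arrays 1 and 3. Perforin was thus lowest where Gzma was highest. Prf1 cleared the stricter limit on no array, and Nkg7 cleared it on array 3 alone. With the median of the background genes plus 1 log2 unit as the limit, Gzma, Prf1 and Nkg7 were all above it on every array. Without array 1, Gzma and Prf1 were above background on the remaining arrays, and without array 2, Gzma and Nkg7 were.

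Most genes for building, moving and fusing granules were detected. Of 20 measured genes for granule contents and secretion, with Prf1 and Nkg7 among them, 14 lay above background on all arrays, 3 on some and 3 on none, where 40.5% of all genes lay above it on all arrays. The list median was 8.67 ± 0.06, against 6.85 over all genes. The difference between this list and the granzymes was not tested. Srgn, which encodes the proteoglycan that packs granzymes, had 11.36, 11.04 and 11.17 on arrays 1, 2 and 3. Ctsc, the protease that activates granzymes by trimming them, had 9.30, 9.08 and 9.32. The transport and fusion genes Rab27a (9.90 ± 0.12), Unc13d (8.56 ± 0.18), Stx11 (8.02 ± 0.04), Stxbp2 (9.65 ± 0.07) and Lyst (10.87 ± 0.11) were all above background on every array. These are also used by secretory lysosomes of other blood cells. The 3 below it on every array were Fasl, the death ligand (5.16 ± 0.06), Serpinb9, which protects a killer cell from its own granzyme B (5.89 ± 0.04), and Cst7, a protease inhibitor (6.43 ± 0.15). Serpinb6b joined Prf1 and Nkg7 among those above background on some arrays, and Tnfsf10, the death ligand TRAIL, was above it on all, with 7.48, 7.59 and 7.68.

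**Figure D3:**
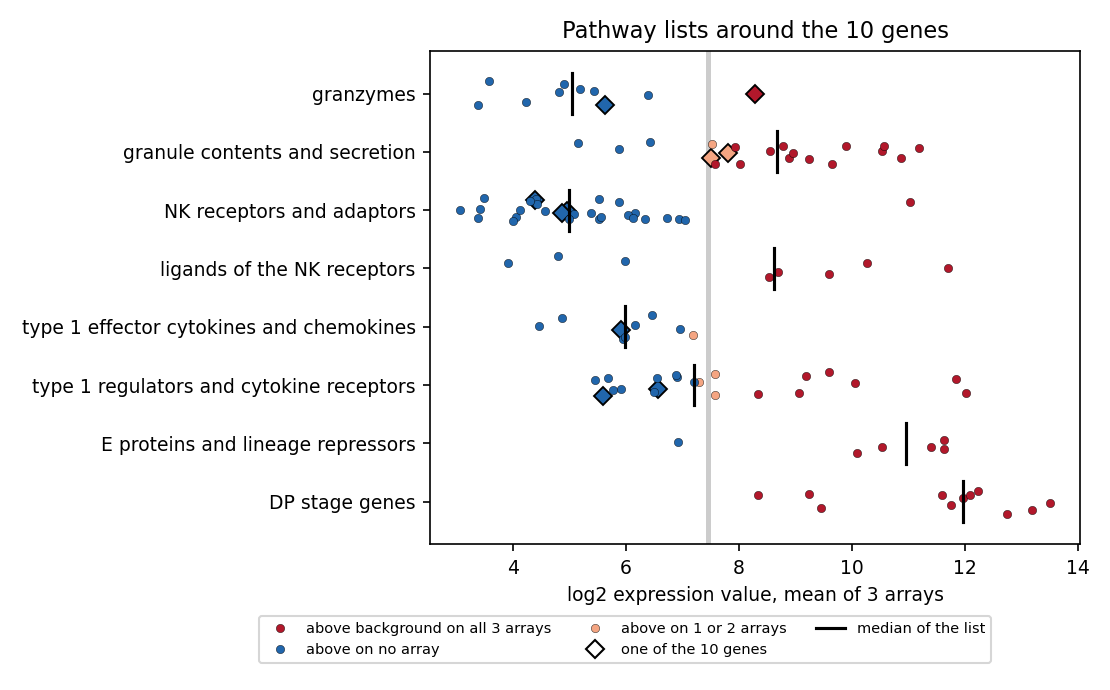
Log2 expression value (horizontal axis, mean of 3 arrays) of each measured gene in 8 lists (rows), coloured by whether it lay above background on all, some or no arrays. Diamonds are the 10 genes, black bars are list medians and the grey band is the background limit. Granzymes and NK receptors lie mostly left of the band, and genes of granule secretion mostly right of it.

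The 3 NK receptor genes lay below the limit on every array. Klrd1 encodes CD94, which pairs with NKG2 chains to read the class I molecule Qa-1. It had 5.24, 4.73 and 4.90 on arrays 1, 2 and 3 (4.96 ± 0.26). Klrk1 encodes the activating receptor NKG2D, which reads stress ligands, and had 4.59, 4.30 and 4.32 (4.40 ± 0.16). Ncr1 encodes NKp46, a defining receptor of NK cells, and had 5.11, 4.78 and 4.71 (4.87 ± 0.21). The nearest of the 3 to the limit was Klrd1 on array 1, with a difference of -2.23 log2 units. On every array all 3 were also below 5.91, the median of the genes of other organs.

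The same held for nearly all of the family. Of 29 measured NK receptor and adaptor genes, 28 lay below background on every array, against 56.5% of all genes. The list median was 5.00 ± 0.26. The exception was Cd96, a receptor for the adhesion protein CD155 that T cells also carry, with 10.65, 11.17 and 11.25. Klrb1c, which encodes the NK marker NK1.1, had 5.57, 4.67 and 4.77. The signalling adaptors came nearer to the limit: Hcst, which encodes the NKG2D partner DAP10, had 7.21, 6.95 and 7.0, and Tyrobp, which encodes DAP12, had 7.19, 6.73 and 6.92. Neither reached it on any array.

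Klrd1 and Klrk1 are neighbours in the NK gene complex, a stretch of chromosome 6 that was followed from Klrb1a to Klra2 in the order of the RefSeq table. None of its 20 measured Klr genes exceeded background on any array, where 56.5% of all genes did not. The means of these Klr genes ranged from 2.80 to 6.16. Some Klra genes share their probe sets with close relatives and were not analysed here, and near-identical copies can share signal. Genes for the other side of the encounter lie in the same stretch, and Clec2d and Clec2i were above background while its other measured Clec2 genes were not. Clec2d, which encodes a ligand of NKR-P1 receptors, had 8.41, 8.66 and 9.01, and Clec2i, which encodes another, had 9.12, 9.88 and 9.78. Clec2h, Clec2g, Clec2e and Clec2m lay below it on every array, with means of 6.36, 5.31, 3.90 and 5.42. Cd69, an activation marker of thymocytes under selection, had 9.75, 8.74 and 8.94. Of 36 measured genes, these 3 exceeded the limit on every array, against 40.5% of all genes, and Gabarapl1, a gene of autophagy, exceeded it on array 1. The stretch and its detected genes were chosen after their values were seen.

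**Figure D4:**
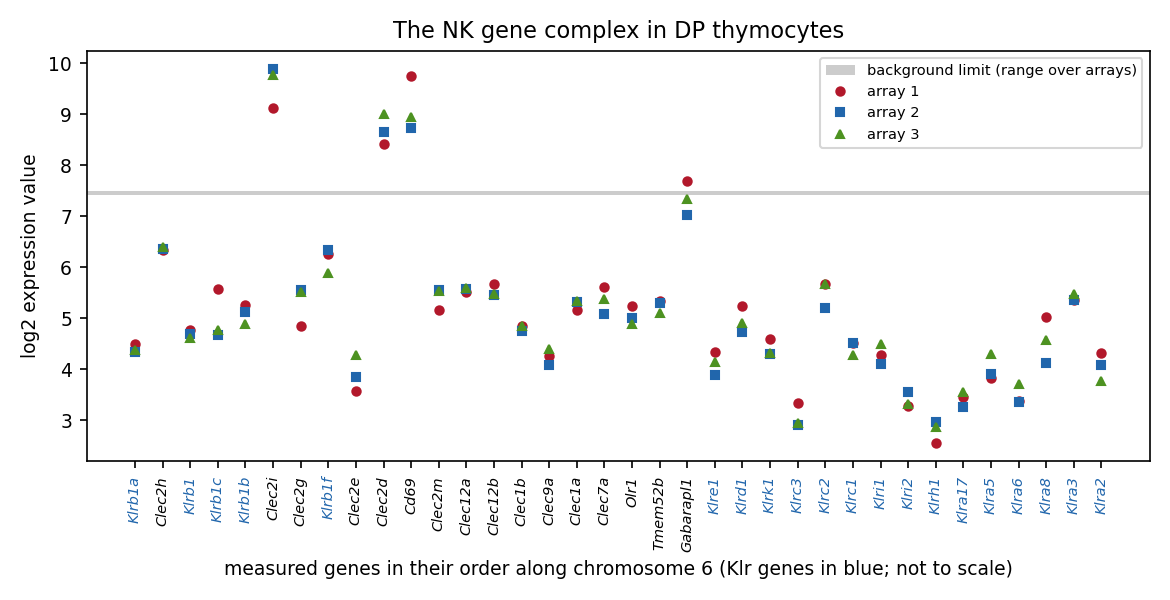
Log2 expression value (vertical axis) on arrays 1 to 3 of the 36 measured genes of the NK gene complex, in their order along chromosome 6 but not to scale, with the background limit as a grey band. Clec2i, Clec2d and Cd69 lie above the band on every array, and every Klr gene (blue names) lies below it.

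Ligands outside the complex were detected as well. Of 16 listed ligand genes, 8 were measured. Of these, 5 lay above background on all arrays, where 40.5% of all genes did. They were Clec2d and Clec2i from the complex and, outside it, B2m (11.70 ± 0.20), Cd48 (8.54 ± 0.26) and Pvr, which encodes the CD96 ligand CD155 (10.27 ± 0.04). The NKG2D ligand genes Raet1d and H60b lay below background, with 3.92 ± 0.10 and 4.80 ± 0.12. The other NKG2D ligand genes on the list were not analysed here, and neither was H2-T23. Nectin2, which encodes a partner of adhesion-type receptors as Pvr does, also lay below it, with 5.68, 6.16 and 6.10.

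Ifng, the gene of interferon gamma, had 6.18, 5.70 and 5.88 on arrays 1, 2 and 3 (5.92 ± 0.24). Its differences from the limit were -1.29, -1.80 and -1.54 log2 units. Of 9 measured type 1 cytokine and chemokine genes, none lay above background on all arrays, where 40.5% of all genes did. Tnf lay above it on array 1 alone, with 7.87, against 6.85 and 6.83 on arrays 2 and 3. Ccl5, a chemokine stored by memory and NK cells, had 7.39, 6.65 and 6.85, and Ccl3 had 6.40, 5.70 and 5.88. The list median was 5.99 ± 0.23.

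Tbx21, the gene of T-bet, had 6.76, 6.65 and 6.29 on arrays 1, 2 and 3 (6.57 ± 0.25). Its differences from the limit were -0.71, -0.85 and -1.13 log2 units. Eomes had 5.64, 5.62 and 5.53 (5.60 ± 0.06), the closest agreement between arrays among the 10 genes. Neither T-box gene came above background on any array, and both stayed below the most lenient limit as well, on every array. Of 21 measured type 1 regulators and cytokine receptors, 7 lay above background on all arrays, 3 on some and 11 on none, with a list median of 7.20 ± 0.21. Those 7 are a smaller share of the list than the 40.5% of all genes above background on every array. Stat4, which carries the interleukin 12 signal, had 8.84, 9.06 and 9.29, and Il12rb1, a chain of its receptor, had 9.22, 9.19 and 9.17. Il12rb2, the other chain, was above background on array 1 alone, with 7.76, 6.97 and 7.16.

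The receptor chains for interferon gamma, Ifngr1 and Ifngr2, had 11.84 ± 0.14 and 10.06 ± 0.02, while the cytokine's own gene lay below background. Il21r and Ets1, at 9.60 ± 0.10 and 12.02 ± 0.05, were also above it on every array, as was Id2, an antagonist of E proteins that NK cells require, with 8.71, 8.05 and 8.27. Runx3, a factor of CD8 and NK cells, stood at the limit with 7.62, 7.50 and 7.60, above it on arrays 1 and 3. Il2rb, the receptor chain that NK and memory T cells use for interleukin 15, had 7.29, 6.47 and 6.98, below it throughout. Of 6 measured E proteins and T-lineage factors, 5 were above background on all arrays, against 40.5% of all genes. Among them were Bcl11b (11.63 ± 0.04), Tcf12 (11.63 ± 0.07) and Tcf3, the gene of E47 (10.53 ± 0.13). Zbtb7b, the factor of the CD4 lineage, was the 1 not above background, with 6.93 ± 0.13.

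The cohorts were compared gene by gene. No member passed the limma test of variance over the 3 arrays (adjusted p from 0.988 for Gzma to 0.999 for Eomes, Benjamini-Hochberg over all probe sets), and 0.0207% of all probe sets did. At an unadjusted p under 0.05, 2 of 10 counted, Gzma and Nkg7, against 4.66% of all probe sets in the limma test. This count was not stable: it was 1 with quantile normalization, 0 with either other prior, 2 without array 1, where they were Gzmb and Nkg7, and 0 without array 2 or without array 3. No member differed by more than 1 log2 unit between any pair of arrays, as 0.466% of all genes did. The widest range was 0.62, for Gzmb between arrays 3 and 2. With 3 arrays the test misses shifts larger than any seen among the 10 genes, so a p above the threshold does not show that the cohorts had the same level.

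Within these small differences, the members leaned the same way. Array 1 was the highest for 8 of 10, all but Gzmb and Prf1, against 34.5% of all genes and, for the 7 members below background throughout, 6 of 7 against 31.0% of all such genes. Array 1 was above array 2 for 9 of 10, Prf1 being the exception, against 45.4% of all genes. The median difference between arrays 1 and 2 was 0.41 log2 units over the 10 genes and -0.02 over all genes. Gzma, Gzmb, Nkg7 and Klrd1 differed by 0.53, 0.51, 0.54 and 0.51, that is by 1.42-fold to 1.45-fold, and Eomes by 0.02. The SD over arrays had a median of 0.24 for the 10 genes and 0.11 for all genes. The counts are descriptions: each cohort has 1 array, and members of one programme are not independent. Array 1 also differed from the others in its sex-linked genes, so sex and cohort cannot be told apart in a comparison with it.

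Other gene groups moved between the same arrays. Over all genes, 34.5% were highest on array 1, the share to set beside the counts that follow. All 4 measured MHC class II genes were highest on array 1, with summed linear signals of 1867, 721 and 1189 on arrays 1, 2 and 3, and so were 11 of 12 immediate-early genes, with 15289, 5484 and 5874. Of the 9 markers of mature CD8 and memory T cells, 7 were highest on array 1, and their sums were 2115, 1500 and 1695. Il7r (8.02, 7.16 and 7.36) and Cd44 (7.66, 6.84 and 7.05) were above background on array 1 alone. The 8 NKT and innate-like markers had sums of 3745, 3633 and 3775 and medians of 7.025, 6.56 and 6.635, with 5 of 8 highest on array 1. Slamf1, Slamf6 and Sh2d1a, the brightest of them, were above background on every array, 3 of 8 where 40.5% of all genes were. The other 5 were below it throughout, among them Zbtb16, the list's defining factor, with 6.45, 6.27 and 5.94. For 6 gamma delta T cell markers the sums were 614, 641 and 642, with 1 of 6 highest on array 1. The 7 measured B cell markers had sums of 353, 335 and 334, with 4 of 7 highest on array 1. The 8 myeloid markers, all below background, had sums of 710, 607 and 655, with 5 of 8 highest there. The 10 cytolytic and effector genes summed to 1181, 957 and 1061, with array 1 highest and array 2 lowest. The class II, mature, myeloid and immediate-early lists had the same order. So did the sums of the granzymes (712, 578 and 610), of which Gzma was the brightest, and of the type 1 cytokines and chemokines (837, 601 and 610). The medians of these 2 lists did not have that order, with 5.045, 4.935 and 5.06 for granzymes and 6.33, 6.01 and 5.88 for cytokines and chemokines. The sums of other lists did not: NK receptors and adaptors had 2955, 3453 and 3622, and granule contents and secretion 12723, 12700 and 13181. Type 1 regulators and cytokine receptors had 12604, 12531 and 12728. A linear sum is set mostly by the brightest genes, such as Cd96 (10.65, 11.17 and 11.25) and, among the regulators and receptors, Ifngr1 (11.68, 11.87 and 11.96). By their medians on arrays 1, 2 and 3, NK receptors and adaptors (5.27, 4.78 and 4.88) did have that order. So did regulators and receptors (7.34, 6.97 and 6.98), but not granule contents and secretion (8.61, 8.71 and 8.60). Array 1 was highest for 3 of 10 granzymes and 8 of 20 granule genes, near the 34.5% of all genes, and for 5 of 9 cytokines and chemokines. It was highest for 15 of 29 NK receptors and adaptors and 16 of 21 regulators and receptors. The granzyme, granule, NK receptor, cytokine, regulator and NKT lists share genes with the 10. DP stage genes were lowest on array 1, at 44977, against 51604 and 51120. The part of any of these groups, or of sex, in the differences between arrays was not tested.

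**Figure D5:**
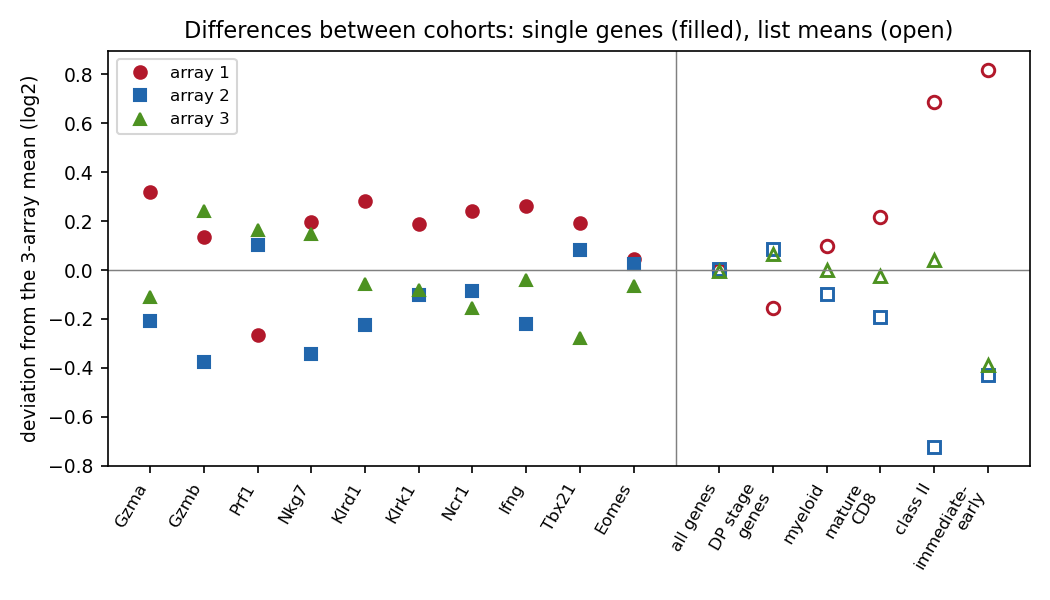
Deviation of each array from the 3-array mean (log2, vertical axis) for the 10 genes (filled points) and as the mean over 6 gene sets (open points). Array 1 is uppermost for 8 of the 10 genes, and for the myeloid, mature CD8, class II and immediate-early lists, and lowest for the DP stage genes.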

How the data were processed

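Expression was measured by Affymetrix array in 3 samples of DP thymocytes, named by their array numbers in the labels. As deposited, each probe set has 1 log2 expression value on each array, to 2 decimals. That unit was inferred from their range of 1.6 to 14.94. The package affy is named in the submitters' processing notes. The sources used here do not give its settings or the genome build. The labels' protocol describes formaldehyde fixation before the sort and does not say whether RNA came from fixed cells. Arrays carry no counts, and their number limits the precision. The labels call the cohorts biological replicates.

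Genes were named from the platform's annotation table: of 35556 probe sets, 21789 have 1 symbol, 1621 several and 12146 none. Probe sets with several symbols named no gene. Below the first annotated probe set, 6617 probe sets were left out as the control block, and 28939 were kept. The brightest probe set stood for a gene. Of 118 genes listed for other organs, 107 were measured, and of 191 entries in 15 gene lists, 168 were. The other 23 were not analysed here. Members and lists were chosen with earlier results of these data known, and these results are no independent support for patterns already seen. Named genes were the 10 members, list genes above background on all or some arrays, neighbours in the genome, and examples from the lists chosen after their values were seen.

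Differences between arrays were tested with limma 3.58.1 in R 4.3.3, with an intercept-only fit and an F test of each variance against a robust mean-dependent prior. Tested on simulated data, it recovered large shifts of 1 array but none of the smallest simulated ones, which were larger than any difference among the 10 genes. Python 3.11.15, numpy 2.4.6 and pandas 2.3.3 did the rest. Alternatives were other background limits, quantile normalization, median centring, each array left out, other ways to represent a gene and other priors.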

Additional observations from a re-analysis of the deposited data

How the results depend on the processing

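The count of 1 member above background on all arrays was unchanged with the stricter limit (99th percentile), quantile normalization, median centring and the mean or dimmest probe set. It was 3 with the median of the background genes plus 1 log2 unit, and 1 to 2 with each array left out in turn. Gzma was among those counted under each of these alternatives. A planned exchange of the list of organ genes for another list was not run. The limma variance test called 0 members under each alternative, with 3 and 0 calls over all probe sets for a prior that was not robust and a prior without a trend (1237 and 1157 at an unadjusted p under 0.05), against 6, and 18, 0 and 0 without arrays 1, 2 and 3. The lowest adjusted p of a member was 0.52, without array 1. The counts of 8 members highest on array 1 and 9 above array 2 held under quantile normalization and median centring, both chosen after seeing the data for these counts. All 60 recomputed member levels stayed within 1 SD, the largest move being 0.19 log2 units. Most of them could not have done otherwise. Leaving out 1 of 3 arrays cannot move a mean by 1 SD, and each member has only 1 probe set to average. Of 135 recomputed list counts, 5 moved by over 1.5 times. With the 99th percentile, the mature CD8 list had 2 genes above background, the immediate-early list 5, and the class II and gamma delta lists 0. Without array 2 the class II list had 4. No paired analysis was possible because the arrays form a single group. The number of arrays, 3, limits the precision.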

Other observations

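The nearest protein-coding neighbours of the 10 genes, in RefSeq order, give a view of the chromosomal surroundings. Outside the receptor and granzyme clusters, 3 neighbours lay above background on all arrays, each beside a member that did not: Dyrk2, a kinase gene next to Ifng, with 9.16, 9.17 and 8.96, Osbpl7, a lipid-binding protein gene next to Tbx21, with 8.60, 8.57 and 8.53, and Golga4, a Golgi protein gene next to Eomes, with 8.62, 8.64 and 8.65. Over all genes, 40.5% lay above background on all arrays. The other measured neighbours outside the clusters lay below it on every array. Beside members below background these were Iltifb, Tbkbp1, Lilra5 and Atp12a, with means of 3.68, 7.14, 5.45 and 5.43. Both neighbours of Gzma, Prf1 and Nkg7 also lay below it. Their means were 5.68 for Gpx8 and 5.44 for Gzmk, 6.91 for Adamts14 and 6.39 for Pald1, and 6.72 for Lim2 and 6.04 for Cldnd2.

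Of the other genes on the type 1 lists, the widest differences between arrays 1 and 2 were those of Nfil3, a factor that NK cells need to develop, with 8.26, 7.18 and 7.28, and of Tnf, with 7.87, 6.85 and 6.83. Neither passed the limma variance test (adjusted p = 0.81 and 0.845).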
